A study of Homo sapiens with 12 samples.

Results

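The constitutive proteasome genes are described here across 2 hepatocellular carcinoma (HCC) cell lines with altered EGR1. Members were all gene names made of PSMA, PSMB, PSMC, PSMD, PSME, PSMF or PSMG and a number, without the interferon-inducible catalytic subunits PSMB8, PSMB9 and PSMB10. That gave 45 of the 22963 gene names. The series measured mRNA by RNA sequencing in 12 libraries, with 3 libraries in each of 4 groups. PLC/PRF5 cells carried either an empty lentiviral vector or a lentiviral vector that expresses EGR1 from the CMV promoter. MHCC97H cells were either parental or labelled EGR1 knockout, and the knockout was made with lentiCRISPR-v2 and grown from single clones. The sources used here do not say which clone was sequenced, so the knockout group can carry what is peculiar to 1 clone. Both lines were grown in DMEM with fetal bovine serum. The labels call the 3 libraries of a group biological replicates and do not say how they were grown apart, so p-values measure the spread between these libraries.

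The proteasome degrades proteins tagged with ubiquitin. Its 20S core is a barrel of outer alpha rings, which gate the entry, and inner beta rings, in which PSMB5, PSMB6 and PSMB7 carry the chymotrypsin-like, caspase-like and trypsin-like activities. The 19S particle caps the barrel. Its base holds the ATPases PSMC1 to PSMC6, which unfold substrates, and its lid holds PSMD14, the enzyme that removes ubiquitin chains. Further members activate the core (PSME1 to PSME4), inhibit it in vitro (PSMF1) or chaperone the assembly of the core (PSMG1 to PSMG4) and of the base (PSMD5, PSMD9, PSMD10). Tumour cells depend on this machinery for protein turnover, and the transcription factor NFE2L1 raises its genes together when the proteasome is inhibited.

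EGR1 binds GC-rich DNA, so the bases before the members' start sites were searched for its motif GCGNGGGCG on both strands. Of the members, 39 had a RefSeq promoter entry (GRCh38.p14), and the 250 bases before the start held this motif in 5 of them (12.82%), against 18.02% of the 9251 genes with an entry and a mean level of at least 1 FPKM. Over all 27305 RefSeq promoter entries the share was 10.06%. The 39 members include PSMA8 and PSMB11, which did not reach 1 FPKM. The 9251 genes were filtered on that level, so the sets are not quite alike, here and for the motifs below. FPKM, the fragment count scaled for transcript length and library size, is the unit of the deposited levels. The 5 were PSMC3, PSMC4, PSMD14, PSMG1 and PSMA8. The sequences below are shown because they are the matches in the 4 of these genes with transcripts in these cells. Capitals mark the motif or, where it lies on the other strand, its reverse complement. For PSMC3 and PSMC4 the stretch runs from 250 bases before the start to the first annotated exon base. The matches of PSMD14 and PSMG1 lie inside an annotated GENCODE exon and are given with 10 bases on either side. Counted from the start site, the matches begin at -107 (PSMD14), -49 (PSMC3), -172 (PSMC4), and -178 and -98 (PSMG1).
PSMD14, plus strand of chr2:161308308-161308336: gacgccgggcCGCCCGCGCcgtctgtccc
PSMC3, minus strand of chr11:47426474-47426689: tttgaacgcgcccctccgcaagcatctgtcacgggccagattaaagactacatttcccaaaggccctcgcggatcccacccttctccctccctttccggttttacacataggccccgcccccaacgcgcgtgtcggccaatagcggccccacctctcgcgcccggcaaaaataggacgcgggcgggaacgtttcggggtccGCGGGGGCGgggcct
PSMC4, plus strand of chr19:39970915-39971004: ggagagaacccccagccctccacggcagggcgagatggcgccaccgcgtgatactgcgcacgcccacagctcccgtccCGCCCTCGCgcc
PSMG1, first match, minus strand of chr21:39183611-39183639: gggcatgacaGCGCGGGCGggcggtgtag
PSMG1, second match, minus strand of chr21:39183531-39183559: cgggacgtagCGCCCGCGCggtgggggtg

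NFE2L1 binds the antioxidant response element, and the core of that element (TGACNNNGC) lay before 12 of the 39 members (30.77%), against 16.1% of the 9251 genes and 13.22% of all entries. It was found before 7 of 11 regulators and chaperones, 3 of 16 genes of the 19S particle and 2 of 12 genes of the core. The matches of PSME1 and PSME2 are shown because PSME1 was called lower in EGR1-overexpressing cells and its partner subunit PSME2 was not called there. Both genes hold the match, so it does not set them apart. NFE2L1 itself was not called in those cells (log2 fold change -0.08 ± 0.12 (SE), limma adjusted p = 0.66). The match of PSME2 lies inside an annotated GENCODE exon and is given with 10 bases on either side.
PSME1, plus strand of chr14:24135944-24136157: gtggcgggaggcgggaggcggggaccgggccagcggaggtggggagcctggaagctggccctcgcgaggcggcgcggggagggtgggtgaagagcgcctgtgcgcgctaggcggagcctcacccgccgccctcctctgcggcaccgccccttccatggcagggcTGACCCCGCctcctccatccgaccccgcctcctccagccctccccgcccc
PSME2, minus strand of chr14:24146767-24146795: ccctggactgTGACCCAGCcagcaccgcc
Of the other motifs searched, the CCAAT box (CCAAT) lay before 46.15% of the 39 members and 41.92% of the 9251 genes. The GC box bound by SP1 (GGGCGG), which can overlap the EGR1 motif, lay before 64.1% and 75.99%. The ETS motif (CCGGAAG) lay before 28.21% and 20.1%. A match is a run of letters and no measured binding.

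EGR1 itself was given first as the check of the labels. In PLC/PRF5 it was at 1.97, 1.43 and 2.03 FPKM with the vector and at 56.3, 50.2 and 52.2 FPKM with EGR1. In MHCC97H it was at 20.2, 23.1 and 21.2 FPKM in parental libraries and at 35.2, 50.3 and 32.9 FPKM in those labelled knockout. EGR1 mRNA was thus higher in the libraries labelled knockout (log2 fold change 0.83 ± 0.15 (SE), limma adjusted p = 0.0013), which goes against the direction of the label, and an mRNA level does not measure the protein. With libraries scaled to the same total, EGR1 stood at 0.68 ± 0.15 (limma adjusted p = 0.0043). With a trend on transcript GC content and length removed, it stood at 0.47 ± 0.16 (limma adjusted p = 0.0434). The paper states that its knockout clones were checked by western blot and by sequencing of DNA. Of the 8 hepatocyte markers, ALB, APOB, SERPINA1, TF, FGB and AFP were at 9.114 FPKM or more in every PLC/PRF5 library, and TTR was at most 0.5136 FPKM there. APOA1 was between 2.065 and 4.071 FPKM with the vector and between 107.6 and 117.1 FPKM with EGR1. In parental MHCC97H all 8 were low, at most 3.049 FPKM (FGB). In the libraries labelled knockout FGB was between 16.28 and 19.5 FPKM and ALB between 14.08 and 16.51 FPKM, and the other 6 were at most 3.125 FPKM. The part of these differences in the results on the proteasome was not tested. Of the epithelial genes, KRT8 was between 970.5 and 1936 FPKM and KRT18 between 473 and 1263 FPKM in every library. EPCAM was at most 0.1081 FPKM. Of the genes listed for stromal or blood cells, PTPRC was at most 0.05868 FPKM and COL1A1 at most 0.3342 FPKM. The others of that list were higher, PECAM1 between 1.472 and 6.297 FPKM and CD68 between 26.32 and 56.18 FPKM. Total FPKM per library ran from 376335 to 437652. The files give no read counts, so sequencing depth is unknown.

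Nearly every member was well expressed. PSMA8, the alpha subunit of meiotic cells, was listed at 0 in all 12 libraries. PSMB11, the catalytic subunit of the thymic cortex, was listed at 0 in 11 libraries and at 0.0119 FPKM in the second vector library. The other 43 members passed the filter of a mean of at least 1 FPKM in each comparison. Group means of these 43 ran from 13.4 (PSMF1) to 235 FPKM (PSMA7) with the vector and from 11.5 (PSMF1) to 256 FPKM (PSMA7) with EGR1. In MHCC97H they ran from 4.38 (PSMG4) to 218 FPKM (PSMB4) in parental libraries and from 8.93 (PSMG4) to 312 FPKM (PSMB4) in those labelled knockout. The median coefficient of variation over the 3 libraries of a group lay between 7.34% and 10.7%. Within the alpha ring, vector means ran from 21.9 (PSMA5) to 235 FPKM (PSMA7), so levels differed widely between subunits of the same ring.

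**Figure D1:**
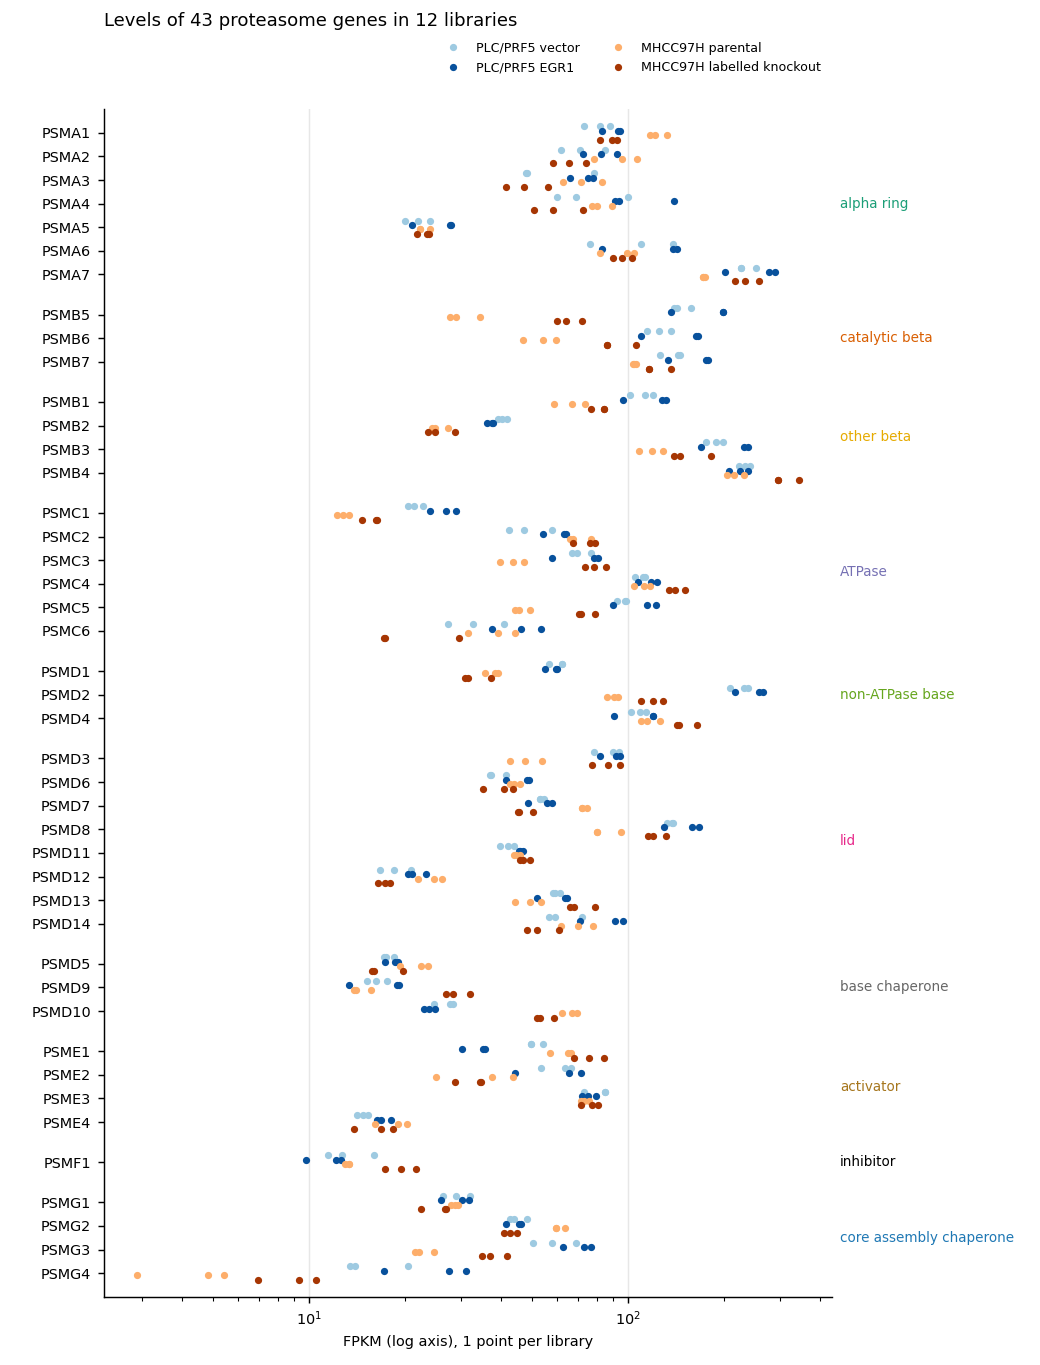
FPKM (horizontal log axis) of the 43 expressed members in each of the 12 libraries, 1 point per library, coloured by group and ordered by role. PSMA7 and PSMB4 lie at the right in every group, PSMB5 lies at 27.6 to 34.5 FPKM in parental MHCC97H and at 140 to 158 FPKM with the vector, and PSMG4 is the leftmost gene in MHCC97H.

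Summed over all members, the proteasome took 0.817% ± 0.017 of the library's FPKM with the vector and 0.875% ± 0.056 with EGR1 (SD, n = 3). It took 0.715% ± 0.009 in parental MHCC97H and 0.736% ± 0.019 in the libraries labelled knockout. No test was made on sums or ratios over members. The summed 19S particle stood at a ratio of 0.782 ± 0.066 to the 20S core with the vector, 0.768 ± 0.044 with EGR1, 0.786 ± 0.009 in parental MHCC97H and 0.812 ± 0.031 in those labelled knockout. The ranges of this ratio overlapped between all 4 groups. The beta ring stood at 1.73, 1.36 and 1.49 times the alpha ring with the vector and at 1.44, 1.37 and 1.47 times with EGR1. In parental MHCC97H it stood at 0.842, 0.946 and 1.01 times the alpha ring, and in the libraries labelled knockout at 1.43, 1.25 and 1.50 times. Parental MHCC97H was therefore the group with the least beta-ring mRNA for its alpha-ring mRNA, and its 3 values lay below all others.

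**Figure D2:**
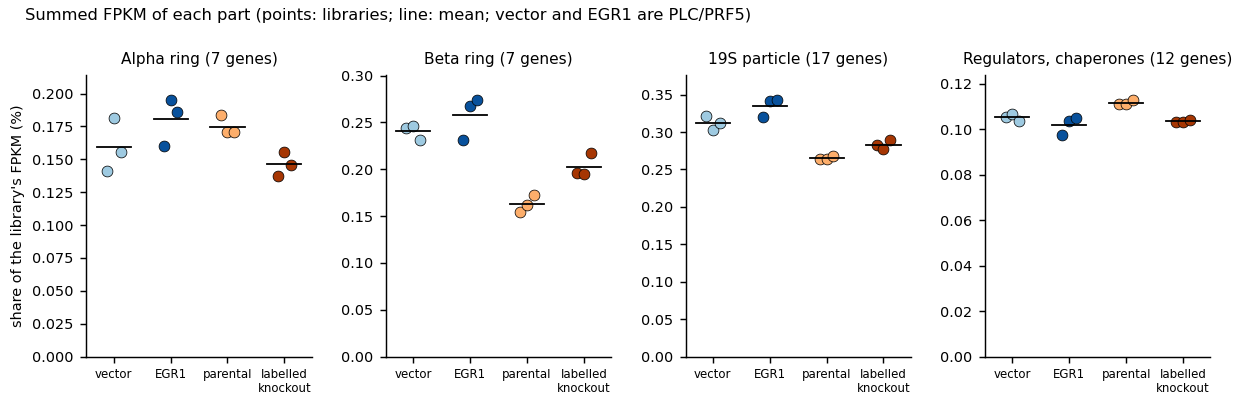
Summed FPKM of the alpha ring, beta ring, 19S particle and regulators with chaperones, as a percent of each library's total FPKM (vertical axis from 0), with 1 point per library and a line at the mean of 3. The beta ring of parental MHCC97H lies between 0.155% and 0.173%, below the other 3 groups, while its alpha ring lies between 0.171% and 0.183%. The sums are as deposited, without correction for GC content.

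The first comparison asked what changed when EGR1 was overexpressed in PLC/PRF5. Few proteasome genes passed the test. Of 43 members, 2 rose (PSMC1 and PSMD14) and 1 fell (PSME1), where limma called 29.6% of all 11671 genes tested, 19.2% as higher and 10.4% as lower. A fold change here is the difference of mean log2(FPKM + 1), so that 1 is a factor of 2, and a call is an adjusted p under 0.05 by limma with Benjamini-Hochberg adjustment over all genes tested. The members' median log2 fold change was 0.13, beside 0.09 over all genes. Groups of 3 libraries did not overlap for 5 of 43 members, against 47.7% of all genes. With 3 libraries against 3, an exact permutation test of 1 gene cannot go below p = 0.1.

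PSME1 gave the clearest change. With PSME2 it forms PA28 alpha-beta, the ring that opens the core without ATP and is induced by interferon gamma. PSME1 (chr14:24136158-24138967 of GRCh38, plus strand) was at 49.8, 54.1 and 49.9 FPKM with the vector and at 30.3, 35.2 and 35.6 FPKM with EGR1. Every EGR1 library lay below every vector library (log2 fold change -0.59 ± 0.09, adjusted p = 0.0027). Its partner PSME2 was at 63.4, 66.4 and 53.6 FPKM with the vector and at 44.3, 71.5 and 65.5 FPKM with EGR1, and these groups overlapped (-0.04 ± 0.17, adjusted p = 0.88). The ratio of PSME1 to PSME2 was 0.786, 0.814 and 0.930 with the vector and 0.683, 0.493 and 0.545 with EGR1. PSME1 was called in all 16 fits that were run, with values from -0.63 to -0.52, and it passed the threshold of 0.01 as deposited. PSME1 overlaps EMC9 on the other strand, and strandedness is not given in the sources used here.

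The other activators and the inhibitor were not called. PSME3, the nuclear activator PA28 gamma, was at 84.7, 72.8 and 84.6 FPKM with the vector and at 71.8, 75.2 and 79.4 FPKM with EGR1 (-0.09 ± 0.09). PSME4, the activator PA200, was at 14.2, 14.8 and 15.3 FPKM against 18.1, 16.3 and 16.8 FPKM, which did not overlap (0.20 ± 0.08, adjusted p = 0.107). PSMF1, the inhibitor PI31, was at 16.0, 11.5 and 12.7 FPKM against 9.81, 12.1 and 12.6 FPKM (-0.20 ± 0.14).

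PSMD14, the deubiquitinase of the lid, was at 56.6, 71.8 and 59.3 FPKM with the vector and at 70.8, 96.5 and 91.5 FPKM with EGR1. The highest vector library lay just above the lowest EGR1 library (0.45 ± 0.14, adjusted p = 0.036). PSMC1, an ATPase of the base, was at 21.3, 22.9 and 20.5 FPKM with the vector and at 24.0, 26.9 and 28.9 FPKM with EGR1, without overlap (0.29 ± 0.10, adjusted p = 0.049). GENCODE names 13 pseudogenes of PSMC1, none of which is a name in the file, and how their reads were counted is not given in the sources used here. Both calls were lost when the first or the third vector library, or the second EGR1 library, was left out. Leaving out the third EGR1 library also ended both of them. PSMC1 lost its call with quantile normalization (adjusted p = 0.0602) and with GC and length correction (adjusted p = 0.067) as well, while PSMD14 kept its call in both (adjusted p = 0.00846 and 0.016). Of the 3 other expressed genes with an EGR1 motif, PSMC3 stood at 0.01 ± 0.13, PSMC4 at 0.08 ± 0.09 and PSMG1 at 0.01 ± 0.11, none called.

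Among the other groups, limma called 0 of the 7 alpha-ring genes and 0 of the 7 beta-ring genes, where an unadjusted p under 0.05 was reached by 1 and 0. With quantile normalization or GC and length correction, 2 beta-ring genes were called higher. The alpha-ring genes had log2 fold changes between 0.11 and 0.51, and the catalytic subunits between 0.20 and 0.25. PSMB5 was at 143, 158 and 140 FPKM with the vector and at 136, 199 and 198 FPKM with EGR1. The first EGR1 library was thus below the vector libraries and the other two were above them. PSMB6 had the same order, at 126, 137 and 115 FPKM against 110, 167 and 164 FPKM. PSMB7 was at 144, 146 and 127 FPKM against 134, 175 and 179 FPKM, with the first EGR1 library inside the range of the vector. PSMD4, the ubiquitin receptor of the base, was at 109, 114 and 102 FPKM against 90.7, 120 and 120 FPKM. That first EGR1 library was the lowest of its group for 37 of the 43 members (86.05%) and for 47.26% of all expressed genes. Its total was 385388 FPKM, beside 435623 and 432849 FPKM for the other two.

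Without the first EGR1 library, 12 members were called higher against 17.8% of all genes, and PSME1 alone was called lower, against 9.26%. The 12 were PSMA5, PSMA7, PSMB3, PSMB5, PSMB6, PSMB7, PSMC1, PSMC5, PSMD6, PSMD8, PSMD14 and PSMG4. PSMB5 then stood at 0.43 ± 0.08 (adjusted p = 0.0087) and PSMG4, a chaperone of the core, at 0.86 ± 0.17 (adjusted p = 0.014). This library was picked out by the members' own low values in it, so the calls without it are only a description. Leaving out 1 of the other libraries instead gave from 0 to 9 members called higher, with 9 when the second vector library was left out. With a spline trend on transcript GC content and length removed from each library, 7 members were called higher, where 16.7% of all genes were, and 2 lower (PSME1 and PSMD10), where 18.1% of all genes were. PSMD10, also known as gankyrin, a chaperone of the base first described as an oncoprotein of HCC, was at 24.7, 28.4 and 27.8 FPKM with the vector and at 23.1, 23.8 and 24.9 FPKM with EGR1. It was called only after that correction (-0.34 ± 0.08, adjusted p = 0.010, beside -0.16 ± 0.09 as deposited). As a description, log2 fold change and GC content of the 43 members had a Pearson r of -0.229 as deposited. After the correction it was 0.325, so the members then had a relation to GC content of the other sign.

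**Figure D3:**
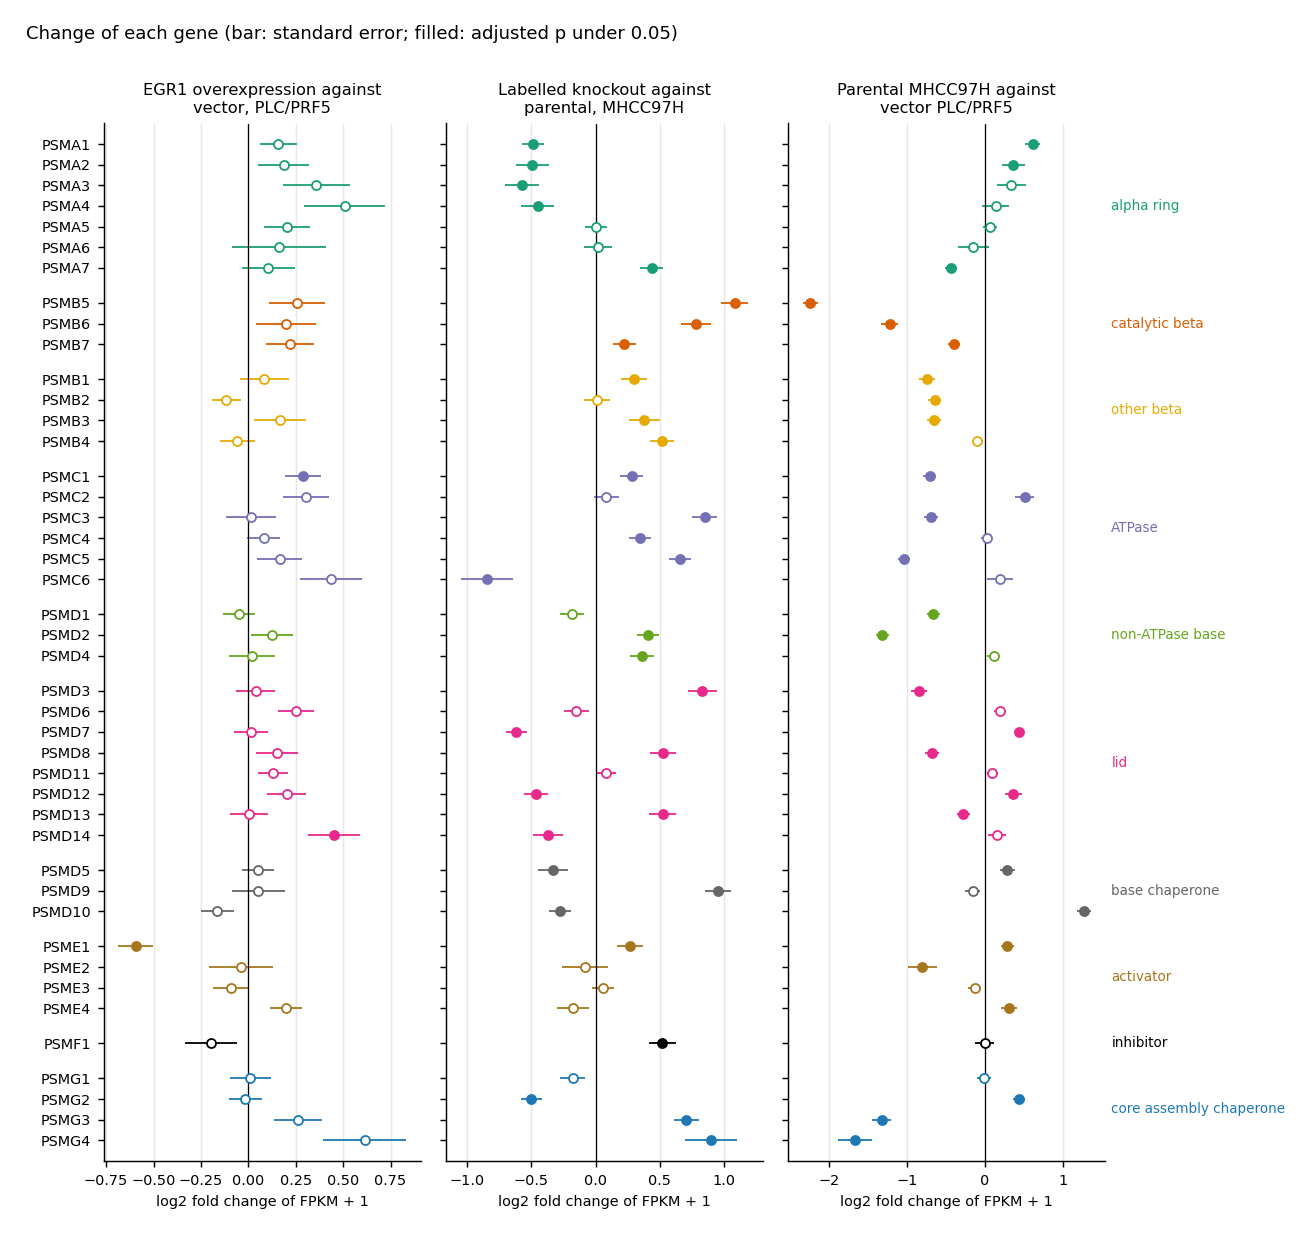
Log2 fold change of FPKM + 1 (horizontal axis) with its standard error for the 43 members by role, in the 3 comparisons, with filled points for an adjusted p under 0.05. Filled points number 3 with EGR1 overexpression, 32 in the libraries labelled knockout and 28 between the cell lines, and the horizontal scales differ between panels.

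The second comparison set the MHCC97H libraries labelled knockout against parental ones. As deposited, the catalytic subunits PSMB5 and PSMB6 were higher, most alpha-ring genes that changed were lower, and the other parts were split. Of 43 members, 21 were higher and 11 lower, where limma called 66.3% of 11577 genes, 34.8% as higher and 31.5% as lower. Groups did not overlap for 32 of 43 members, against 71.8% of all genes. The members' share of calls was thus near that of all genes, and the median log2 fold changes were 0.08 and 0.02.

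In the core, 6 of 7 beta-ring genes were higher and none was lower, against 4 of 7 higher after GC and length correction and 3 of 7 under either other scaling. PSMB5 (chr14:23016543-23035230, minus strand) was at 27.6, 29.0 and 34.5 FPKM in parental libraries and at 60.1, 64.1 and 71.6 FPKM in those labelled knockout, without overlap (1.08 ± 0.11, adjusted p = 6.9e-05). PSMB6 was at 46.8, 54.1 and 59.6 FPKM against 86.2, 86.3 and 106 FPKM (0.78 ± 0.12, adjusted p = 0.0005). PSMB7, the third catalytic subunit, moved less, from 104, 106 and 105 FPKM to 117, 116 and 137 FPKM (0.22 ± 0.09, adjusted p = 0.0498). PSMB1, PSMB3 and PSMB4 were higher by 0.30 to 0.52, and PSMB2 stood at 0.01 ± 0.10. In the alpha ring, PSMA1, PSMA2, PSMA3 and PSMA4 were lower and PSMA7 was higher (0.44 ± 0.09). PSMA5 and PSMA6 stood at 0.00 ± 0.09 and 0.02 ± 0.11. PSMA3 had the largest fall of this ring, from 82.9, 71.2 and 62.6 FPKM to 41.5, 56.1 and 47.3 FPKM (-0.57 ± 0.13, adjusted p = 0.0047). After GC and length correction only PSMA1 and PSMA3 of the alpha ring were called lower. PSMA2 (-0.10 ± 0.07), PSMA4 (-0.03 ± 0.14) and PSMA7 (0.06 ± 0.06) lost their calls, and PSMA5 was called higher (0.68 ± 0.14).

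The 19S particle was split. Of its ATPases, PSMC1, PSMC3, PSMC4 and PSMC5 were higher, with PSMC3 changing most among them (0.85 ± 0.10), while PSMC2 stood at 0.08 ± 0.10. PSMC6 was lower, from 44.4, 39.3 and 31.6 FPKM to 17.2, 29.6 and 17.3 FPKM (-0.85 ± 0.20, adjusted p = 0.0052). The lowest parental library lay only just above the highest library labelled knockout. Of the base, PSMD2 was higher and so was PSMD4, which went from 115, 110 and 126 FPKM to 142, 145 and 165 FPKM (0.36 ± 0.09, adjusted p = 0.0079), and PSMD1 stood at -0.18 ± 0.10. In the lid, PSMD3, PSMD8 and PSMD13 were higher and PSMD7, PSMD12 and PSMD14 were lower, with PSMD6 and PSMD11 not called. PSMD7, which pairs with PSMD14 in the lid, fell from 74.3, 72.1 and 71.9 FPKM to 45.6, 45.4 and 50.4 FPKM (-0.62 ± 0.08, adjusted p = 0.00026). PSMD14 fell from 77.7, 69.6 and 61.9 FPKM to 51.9, 60.7 and 48.3 FPKM (-0.37 ± 0.12, adjusted p = 0.018).

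Regulators and chaperones also went both ways. PSMD9, a chaperone of the base, was at 13.9, 14.0 and 15.7 FPKM in parental libraries and at 28.4, 26.9 and 32.0 FPKM in those labelled knockout (0.95 ± 0.10, adjusted p = 7.8e-05). The other base chaperones were lower, PSMD5 (-0.33 ± 0.12, with overlapping groups) and PSMD10 (-0.28 ± 0.09), with PSMD10 at 69.5, 66.9 and 62.4 FPKM against 53.0, 58.6 and 52.0 FPKM. After GC and length correction neither PSMD5 (0.12 ± 0.09) nor PSMD10 (0.02 ± 0.05) was called. PSMG1 and PSMG2 assemble the alpha ring as a pair, and of these PSMG2 fell (-0.50 ± 0.08) while PSMG1 stood at -0.18 ± 0.10. PSMG3 and PSMG4, which act next as a pair, were both higher. PSMG4 was at 2.90, 5.40 and 4.83 FPKM against 6.91, 10.6 and 9.33 FPKM (0.90 ± 0.20, adjusted p = 0.0038), and PSMG3 stood at 0.71 ± 0.10. After GC and length correction PSMG4 kept its call (0.49 ± 0.17, adjusted p = 0.043) and PSMG3 lost it (0.08 ± 0.05, adjusted p = 0.241). PSMF1 rose from 13.0, 13.4 and 13.3 FPKM to 21.8, 17.3 and 19.5 FPKM (0.52 ± 0.10, adjusted p = 0.0019). Among the activators PSME1 was higher, at 64.9, 57.2 and 66.3 FPKM against 68.1, 75.6 and 84.1 FPKM (0.27 ± 0.10, adjusted p = 0.044). PSME2 (25.0, 37.5 and 43.5 FPKM against 28.7, 34.5 and 34.8 FPKM), PSME3 (73.0, 71.5 and 75.5 FPKM against 77.4, 71.2 and 80.9 FPKM) and PSME4 (20.3, 19.1 and 16.1 FPKM against 18.3, 16.8 and 13.8 FPKM) overlapped and were not called.

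These changes moved with the GC content of the transcripts. Over the 43 members, log2 fold change and GC content had a Pearson r of 0.742 and a Spearman rho of 0.740. These are members of the same libraries, and the correlation is a description. Of the 20 members with at least 50% GC, 18 had a positive value, and of the 12 below 45%, 9 had a negative value. The alpha ring has a median GC content of 42.1% and the catalytic subunits of 51.9%. Over all expressed genes, log2 levels relative to the line's mean changed by between -0.36 and -0.15 per 10 percentage points of GC in the parental libraries and by between 0.17 and 0.36 in those labelled knockout. The same slopes were between 0.02 and 0.17 with the vector and between -0.12 and -0.05 with EGR1. After removal of the trend on GC and length, 14 members were higher, where 24.4% of all genes were, and 8 lower, where 22.2% were. The r was then -0.03. Called higher in both were PSMB1, PSMB4, PSMB5, PSMB6, PSMC1, PSMC3, PSMC5, PSMD3, PSMD9, PSMF1 and PSMG4, and called lower in both were PSMA1, PSMA3, PSMD7, PSMD14 and PSMG2. PSMB5 stood at 0.75 ± 0.07, PSMD9 at 0.76 ± 0.07, PSMD7 at -0.57 ± 0.06 and PSMG2 at -0.82 ± 0.06 after correction, while PSMC6 lost its call (-0.23 ± 0.10, adjusted p = 0.103). PSME4, PSMA5 and PSMC2 were called higher and PSME2 and PSME3 lower only after it, and PSMC4 went from a call as higher to one as lower (-0.13 ± 0.05, adjusted p = 0.0487). Whether GC content set the other changes was not tested.

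Scaling mattered as well. With every library scaled to the same FPKM total, the median log2 fold change of all genes went from 0.02 to -0.11, and 15 members were called higher, where 27.3% of all genes were, and 14 lower, where 38.3% were. With quantile normalization 11 members were higher, where 32.9% of all genes were, and 16 lower, where 32.6% were. Higher as deposited and under both scalings were 11 members, namely PSMB4, PSMB5, PSMB6, PSMC3, PSMC5, PSMD3, PSMD9, PSMD13, PSMF1, PSMG3 and PSMG4. All 11 members that were lower as deposited were lower under both scalings, which added PSMD1, PSMD6 and PSMG1. Over 16 fits, the one as deposited and 15 refits, PSMA1, PSMB5, PSMB6, PSMD7, PSMD9, PSMF1 and PSMG4 were called in all 16. PSMC6 was called in 14, PSMD4 in 13, PSMD14 in 12, PSMD10 in 10, PSME1 in 6 and PSMB7 in 3 of them.

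**Figure D4:**
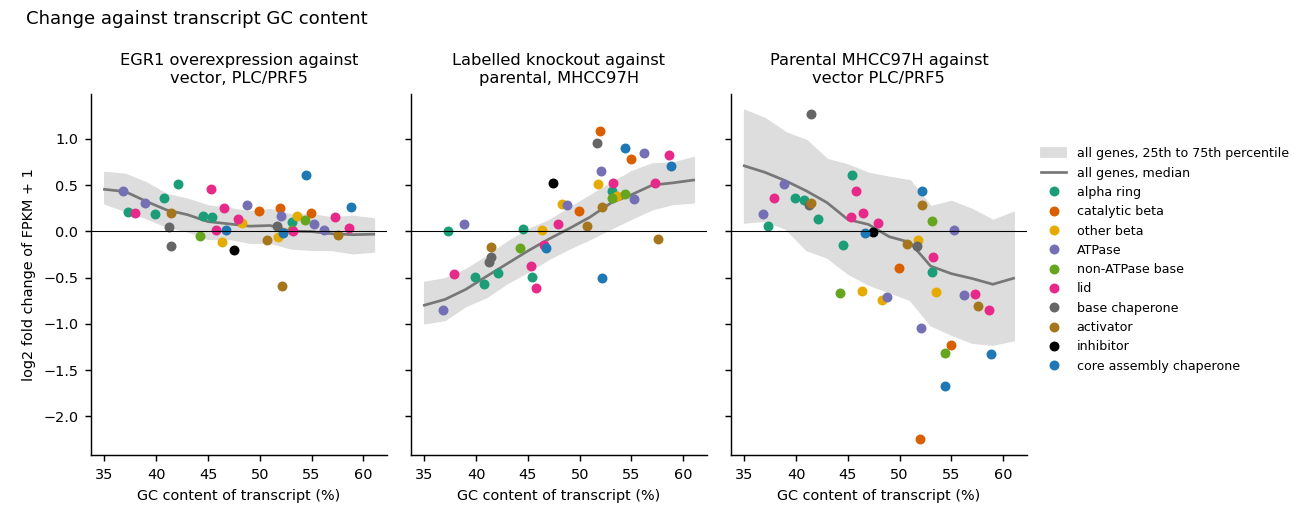
Log2 fold change of FPKM + 1 (vertical axis) against the GC content of the transcript (horizontal axis, percent) for the 43 members, coloured by role, in the 3 comparisons. The grey line and band are the median and the 25th to 75th percentile of all genes tested in bins of 2 percentage points, and the members rise along the line in the libraries labelled knockout, where their r is 0.742.

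The third comparison set parental MHCC97H against vector PLC/PRF5, as the control group of each line. The cell line, the vector and anything else that differed between the lines cannot be told apart, and it shares its libraries with the other comparisons. MHCC97H had less mRNA of PSMB5, PSMB6, PSMG3 and PSMG4, and more of PSMD10. Of the beta ring, 6 of 7 genes were lower as deposited and 4 of 7 after GC and length correction. Of 43 members, 10 were higher and 18 lower in MHCC97H, where 79.8% of 12046 genes were called, 38.8% as higher and 40.9% as lower. Groups did not overlap for 29 of 43 members, against 81.0% of all genes. In bulk samples fewer cells and less RNA per cell cannot be told apart.

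PSMB5 differed most, with 143, 158 and 140 FPKM in vector PLC/PRF5 and 27.6, 29.0 and 34.5 FPKM in parental MHCC97H (-2.24 ± 0.10, adjusted p = 1.1e-07). PSMB6 (-1.22 ± 0.11) and PSMB7 (-0.40 ± 0.08) were lower. PSMB1, PSMB2 and PSMB3 were lower too, so that PSMB4 (-0.10 ± 0.08) was the only gene of the beta ring not called. In the alpha ring PSMA1 and PSMA2 were higher and PSMA7 lower. PSMA1 was at 73.0, 88.0 and 81.6 FPKM in PLC/PRF5 and at 132, 117 and 121 FPKM in MHCC97H (0.61 ± 0.09, adjusted p = 0.00027). PSMD10 was at 24.7, 28.4 and 27.8 FPKM against 69.5, 66.9 and 62.4 FPKM (1.27 ± 0.09, adjusted p = 1.5e-06). It has 3 named pseudogenes, and none of them is a name in the file. The assembly chaperone PSMG4 was at 14.0, 20.5 and 13.5 FPKM against 2.90, 5.40 and 4.83 FPKM (-1.67 ± 0.21, adjusted p = 9.7e-05). Its partner PSMG3 was at 50.5, 68.8 and 57.8 FPKM against 21.5, 22.1 and 24.7 FPKM (-1.33 ± 0.12, adjusted p = 9.4e-06).

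In the 19S particle, 3 genes were higher and 8 lower. PSMC2, an ATPase, was at 42.6, 57.7 and 47.1 FPKM against 76.5, 65.7 and 67.6 FPKM (0.51 ± 0.12, adjusted p = 0.0038). PSMC1, PSMC3 and PSMC5 were lower, as were PSMD1, PSMD2, PSMD3, PSMD8 and PSMD13, with PSMD2 at -1.32 ± 0.08. PSMD7 (0.44 ± 0.07) and PSMD12 (0.36 ± 0.11) of the lid were higher. The activator pair was split, with PSME1 higher (0.29 ± 0.08, adjusted p = 0.013) and PSME2 lower (-0.80 ± 0.19, adjusted p = 0.0035), so that the ratio of PSME1 to PSME2 was 0.843 ± 0.077 in vector PLC/PRF5 and 1.88 ± 0.62 in parental MHCC97H. Here too values moved with GC content, with a Pearson r of -0.630 and a Spearman rho of -0.688 over the 43 members. After correction for GC and length, 13 members were higher, where 39.4% of all genes were, and 15 lower, where 42.1% were. PSMB5 (-1.77 ± 0.06), PSMG4 (-0.97 ± 0.17), PSMG3 (-0.72 ± 0.09), PSMA1 (0.67 ± 0.05) and PSMD10 (1.19 ± 0.07) kept their calls, while PSMC2 (0.09 ± 0.06), PSMB7 (0.04 ± 0.06), PSMB3 (0.04 ± 0.05) and PSME2 (-0.21 ± 0.14) did not. Calls were also lost by PSMC3 (-0.15 ± 0.06), PSMD8 (-0.11 ± 0.05), PSMD13 (0.12 ± 0.06) and PSMD5 (-0.07 ± 0.07). PSMB4 was called higher (0.45 ± 0.04, adjusted p = 8.9e-06). The correction turned 3 calls around, with PSMA7 then higher (0.16 ± 0.05, adjusted p = 0.0171), and PSMD12 (-0.21 ± 0.06, adjusted p = 0.00858) and PSME4 (-0.19 ± 0.06, adjusted p = 0.0142) then lower. With every library at the same total, 14 members were higher and 17 lower, where 42.2% and 37.5% of all genes were. With quantile normalization 18 were higher and 16 lower, where 39.7% and 39.5% of all genes were. Of the members called as deposited, all 10 higher and 16 of the 18 lower were called the same way under both scalings.

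The immunoproteasome subunits left out by the rule are given because each replaces a constitutive one. PSMB8 takes the place of PSMB5. It was at most 0.199 FPKM in the 6 PLC/PRF5 libraries, at 7.30, 6.96 and 7.10 FPKM in parental MHCC97H and at 17.3, 17.3 and 17.9 FPKM in the libraries labelled knockout (1.19 ± 0.09, adjusted p = 2.2e-05). The ratio of PSMB8 to PSMB5 was 0.237 ± 0.029 and 0.269 ± 0.019 in these MHCC97H groups, and at most 0.00126 in any PLC/PRF5 library. PSMB9, which replaces PSMB6, was at 0.595, 0.492 and 0.497 FPKM against 2.30, 2.35 and 3.23 FPKM (1.24 ± 0.13, adjusted p = 8.2e-05). PSMB10, which replaces PSMB7, was at 6.36, 6.09 and 7.54 FPKM against 21.8, 21.8 and 20.6 FPKM (1.55 ± 0.10, adjusted p = 1.7e-05), and its ratio to PSMB7 was 0.0635 ± 0.0076 and 0.175 ± 0.021. All 3 were thus higher in the libraries labelled knockout, and they kept that call after GC correction and under both scalings. With EGR1 overexpression PSMB10 stood at 0.14 ± 0.19 and was not called, and PSMB8 and PSMB9 were below the filter.

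**Figure D5:**
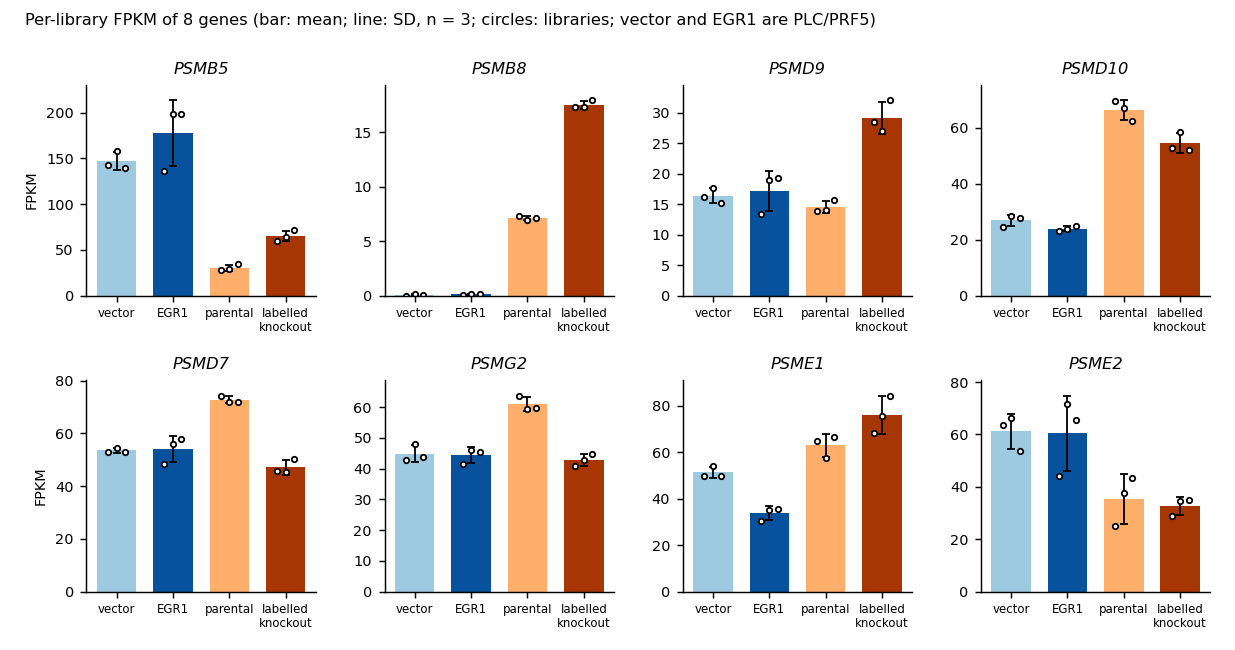
FPKM (vertical axes from 0, scaled per gene) of PSMB5, PSMB8, PSMD9, PSMD10, PSMD7, PSMG2, PSME1 and PSME2 in the 4 groups, with bars for the mean of 3 libraries, lines for the SD and circles for the libraries. PSMB5 is lowest in parental MHCC97H (27.6 to 34.5 FPKM), PSMB8 is at most 0.199 FPKM in PLC/PRF5, and PSME1 is lowest with EGR1 (30.3 to 35.6 FPKM).

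Of 30 related genes of the ubiquitin and proteasome pathway, 28 were tested with EGR1 overexpression, of which 4 rose (SEM1, UCHL5, RAD23B and DDI2) and 0 fell by limma. At an unadjusted p under 0.05 these were 6 and 1, and after scaling to equal totals 3 rose and 1 fell. Of all genes 19.2% rose and 10.4% fell. After GC and length correction these 4 genes all lost their calls, and 1 gene was called higher (ADRM1) and 2 lower (USP14 and VCP). In the libraries labelled knockout, 11 of 30 were higher and 10 lower, where 34.8% and 31.5% of all genes were, and 9 were higher and 3 lower after correction. NFE2L1, the activator of proteasome genes, was at 26.4, 27.6 and 29.4 FPKM in parental libraries and at 48.0, 42.0 and 44.3 FPKM in those labelled knockout (0.67 ± 0.09, adjusted p = 0.00027). ADRM1, a ubiquitin receptor of the base, was at 64.5, 67.4 and 76.2 FPKM against 129, 120 and 134 FPKM (0.87 ± 0.09, adjusted p = 9.1e-05). POMP, which matures the core, was lower (28.0, 23.9 and 22.8 FPKM against 15.8, 21.4 and 18.4 FPKM, -0.41 ± 0.13, adjusted p = 0.016). USP14, a deubiquitinase that docks on the base, was lower as well (52.5, 48.4 and 46.2 FPKM against 32.7, 30.0 and 31.9 FPKM, -0.62 ± 0.09, adjusted p = 0.00034). After GC correction NFE2L1 was still called higher, ADRM1 and USP14 were no longer called, and POMP was called higher. Between the lines 15 of 29 were higher and 10 lower in MHCC97H, where 38.8% and 40.9% of all genes were, and 14 were higher and 11 lower after correction, with NFE2L1 at 91.8, 75.2 and 90.7 FPKM in vector PLC/PRF5 (-1.59 ± 0.10, adjusted p = 7.8e-07).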

How the data were processed

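FPKM values per gene name were made and deposited by the authors from oligo(dT)-selected libraries treated with duplex-specific nuclease, which lowers abundant sequences. The submitters' processing notes name StringTie and hg38 without role. Aligner, annotation and strandedness are not given in the sources used here, so reads of overlapping genes and pseudogene copies cannot be told apart. Members, roles, related genes and motifs were chosen with earlier results of these data known. Genes averaging at least 1 FPKM over a comparison's 6 libraries were tested on log2(FPKM + 1) with limma 3.58.1 (R 4.3.3, trend, 2-sided, Benjamini-Hochberg over all genes, threshold 0.05), each comparison alone. Fold changes on this scale understate low genes. Values in each library were due for PSMB5, PSMB6, PSMB7, PSMD4, PSMD10, PSMD14, PSME1 to PSME4 and PSMF1, and for up to 3 members per direction and comparison that were called without overlap and changed most. Other names were chosen after their values were seen. GC content and length came from GENCODE 29 (GRCh38; 86.2% of names and all 45 members matched). The fit was tested on simulated data. Alternatives changed the pseudocount (0.1), filter (above 0), scaling (same total, quantile), trend, libraries fitted together, replicate block, GC and length correction (splines, 5 degrees of freedom), threshold (0.01) or left out 1 library.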

Additional observations from a re-analysis of the deposited data

How the results depend on the processing

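Of 900 values of the 20 named members under the alternatives, 744 kept direction and call, 64 lost a call, 42 gained one and 50 changed sign. Same-numbered deviations correlated at -0.13, 0.14 and -0.08 with EGR1 overexpression, 0.03, 0.03 and 0.47 in MHCC97H and -0.39, -0.01 and -0.05 between lines. In MHCC97H their mean was 0.18. The mean for deviations of unlike number, -0.09, adds nothing to it, because deviations from a group's mean cancel within the group. Whether replicate numbers pair the samples cannot be told from so few values. With the replicate block 4 members were called higher with EGR1 overexpression, and the counts in the other comparisons stayed within 1.5 times. Members called higher with EGR1 overexpression numbered 0 at a threshold of 0.01 or with the filter of FPKM above 0, 1 without a trend, 6 with quantile normalization, 7 with GC and length correction, 6 with correction and block, and 0 to 12 with 1 library left out. Those called lower numbered 2 with correction, with or without the block. All genes called there numbered 1468 at 0.01 and 1944 to 4007 with 1 library left out. In the libraries labelled knockout, members higher numbered 11 with quantile normalization, members lower 7 at 0.01 and 6 with correction and block, and all genes called 5111 with correction. Between lines, members higher numbered 5 at 0.01 and 18 with quantile normalization. Leaving out 1 library gave 16 to 20 higher and 8 to 11 lower in MHCC97H, and 7 to 13 and 18 to 19 between lines. Except where fewer samples or a stricter threshold set the count, the cause was not tested. Depth is unknown.

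Signs changed as follows on the log2 scale, where values under correction were the same with the block. With EGR1 overexpression, PSMD4 went to -0.0117 and PSMD7 to -0.0156 at the same total, PSMD9 to -0.0338 with quantile normalization, and PSME2 to 0.0086, PSME4 to -0.0754 and PSMD7 to -0.0414 with correction. With 1 library left out, PSMD4 ran from -0.0512 to 0.1507, PSME2 from -0.1740 to 0.1653, PSMD7 from -0.0376 to 0.0889 and PSMD9 from -0.0320 to 0.2143. In the libraries labelled knockout, PSMB7 went to -0.1002, PSMC2 to -0.1861 and PSME3 to -0.2362 with quantile normalization, PSMC2 to -0.0690 and PSME3 to -0.0929 at the same total, and PSMD4 to -0.0285, PSMD10 to 0.0238, PSME1 to -0.0620, PSME3 to -0.1901 and PSME4 to 0.3443 with correction. PSME2 ran from -0.3047 to 0.0833 with 1 library left out. Between lines, PSMB7 went to 0.0433, PSME3 to 0.3490, PSME4 to -0.1858, PSMC6 to -0.2185 and PSMD9 to 0.0536 with correction, PSME3 to 0.1591 and PSMF1 to 0.0209 with quantile normalization, and PSMF1 to 0.0963 at the same total. PSMF1 ran from -0.1021 to 0.1189 with 1 library left out.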
